A study of Homo sapiens with 22 samples.

Results

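The 10 protein-coding genes described here are the 9 genes of the HOXD cluster (HOXD13, HOXD12, HOXD11, HOXD10, HOXD9, HOXD8, HOXD4, HOXD3 and HOXD1) and EVX2, the homeobox gene beside HOXD13. They are listed by name and make up 10 of the 19970 protein-coding genes that RefSeq places on chromosomes 1 to 22 and X. Chromatin was profiled at them by CUT&RUN, in which an antibody tethers micrococcal nuclease to a chromatin feature and the released fragments are sequenced. The peak lists of 18 libraries from 2 established Ewing sarcoma cell lines, A673 and CHLA10, were used; both lines are known to carry the EWS-FLI1 fusion oncoprotein. For each line there were 2 libraries each of H3K4me3, H3K4me1 and H3K27me3 (antibody dilution 1 to 100) and of H3K27ac (1 to 50), all carrying the tag shNS in their labels, which the sources used here do not spell out. Each line also had 1 library made with a rabbit antibody against the HOXD13 protein (1 to 20), without that tag. The 4 IgG libraries were not analysed here. The lines were grown in different media, A673 in RPMI and CHLA10 in IMDM with insulin, transferrin and selenium added, no treatment was recorded, and nothing states that the 2 libraries of a mark came from separate cultures, so their spread may be technical.

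HOX genes encode homeodomain transcription factors and lie in 4 clusters in which gene order follows the order of expression along the body axis. The posterior end of the HOXD cluster, next to EVX2, is known for patterning limbs, digits and genitalia, and the anterior end, at HOXD1, for early axial expression. Polycomb complexes keep silent HOX genes under H3K27me3, and Trithorax-type complexes place H3K4me3 at active or poised promoters. H3K27ac marks active promoters and enhancers, and H3K4me1 marks enhancers, whether active or not.

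Promoter sequences are shown for the 4 genes on which the results below turn: EVX2, whose start carried different marks in the 2 lines, HOXD13, whose start was under H3K4me3 in every library, HOXD10, with H3K4me3 in A673 alone, and HOXD4, without H3K4me3 in either line. Each runs 5′ to 3′ on the gene's own strand, from 250 bases before to 50 bases after the RefSeq start (GRCh38.p14), with CG dinucleotides in capitals. The EVX2 promoter lies at chr2:176083913-176084212 on the minus strand, and those of HOXD13 (chr2:176092471-176092770), HOXD10 (chr2:176116528-176116827) and HOXD4 (chr2:176151300-176151599) lie on the plus strand.
EVX2: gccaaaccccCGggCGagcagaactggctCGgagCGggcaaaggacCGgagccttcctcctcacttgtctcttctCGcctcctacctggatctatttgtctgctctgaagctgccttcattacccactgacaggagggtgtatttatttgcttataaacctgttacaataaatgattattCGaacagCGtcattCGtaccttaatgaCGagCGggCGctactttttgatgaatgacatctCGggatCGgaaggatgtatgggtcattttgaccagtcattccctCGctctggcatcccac
HOXD13: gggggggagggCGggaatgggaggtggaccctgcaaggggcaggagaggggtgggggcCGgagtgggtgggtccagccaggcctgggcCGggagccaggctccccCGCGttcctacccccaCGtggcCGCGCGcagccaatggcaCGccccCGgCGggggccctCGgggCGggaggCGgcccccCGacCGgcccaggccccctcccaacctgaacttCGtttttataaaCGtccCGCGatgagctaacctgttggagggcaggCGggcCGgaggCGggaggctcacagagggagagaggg
HOXD10: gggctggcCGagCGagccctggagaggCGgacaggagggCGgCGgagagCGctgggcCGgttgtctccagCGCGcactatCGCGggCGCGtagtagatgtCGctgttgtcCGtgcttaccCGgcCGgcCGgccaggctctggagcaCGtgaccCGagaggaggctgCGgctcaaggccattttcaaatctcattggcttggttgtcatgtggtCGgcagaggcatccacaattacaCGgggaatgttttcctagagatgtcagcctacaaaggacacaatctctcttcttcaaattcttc
HOXD4: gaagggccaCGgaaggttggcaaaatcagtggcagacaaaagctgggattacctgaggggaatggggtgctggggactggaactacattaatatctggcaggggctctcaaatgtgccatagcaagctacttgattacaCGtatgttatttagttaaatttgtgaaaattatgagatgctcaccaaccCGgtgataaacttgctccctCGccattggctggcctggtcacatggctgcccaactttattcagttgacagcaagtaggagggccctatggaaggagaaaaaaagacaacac

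A gene's window was taken as its RefSeq boundaries plus 1 kb on each side, and the percent of the window covered by called peaks was computed in each library. The lists hold no read counts, so sequencing depth is unknown. They held 17909 to 18497 H3K4me3 peaks in A673 and 21164 to 21384 in CHLA10, and the H3K4me1 peaks covered 51.6 to 74.5 Mb in A673 against 9.63 to 11.3 Mb in CHLA10. H3K4me3 lay at 8 of 8 Ewing sarcoma marker genes in all 4 libraries, against 0 of 10 markers of blood, endothelial, epithelial and muscle cells. Among these, PECAM1 and MYOD1 had H3K4me3 in both A673 libraries alone, EPCAM in both CHLA10 libraries alone, and the mean cover of the 10 markers was 2.05 to 2.30% in A673 and 0.205 to 0.354% in CHLA10. The part of other cells in the results below was not tested.

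Across the 113.4 kb from EVX2 to HOXD1, A673 carried more H3K4me3 and CHLA10 more H3K27ac, and H3K27me3 was called in A673 alone. H3K4me3 peaks covered 46.7 and 43.9 kb in the A673 libraries, against 25.6 and 26.4 kb in the CHLA10 libraries, which is 45.3 ± 1.99 kb and 26.0 ± 0.550 kb (SD, n = 2 each). H3K27ac covered 2.42 and 3.85 kb in A673, against 7.41 and 12.7 kb in CHLA10. H3K27me3 covered 6.55 and 8.39 kb in A673 and no base in CHLA10, and H3K4me1 covered 11.7 and 9.04 kb in A673 against 0.770 and 0.467 kb in CHLA10. Libraries of the same line and mark shared 86.3% of their combined H3K4me3 bases in A673 and 84.1% in CHLA10, while pairs across the lines shared 34.8 to 39.2%. H3K27ac repeated less well, at 7.03% in A673 and 47.6% in CHLA10, and the 2 CHLA10 H3K4me1 libraries shared no base of the locus.

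**Figure D1:**
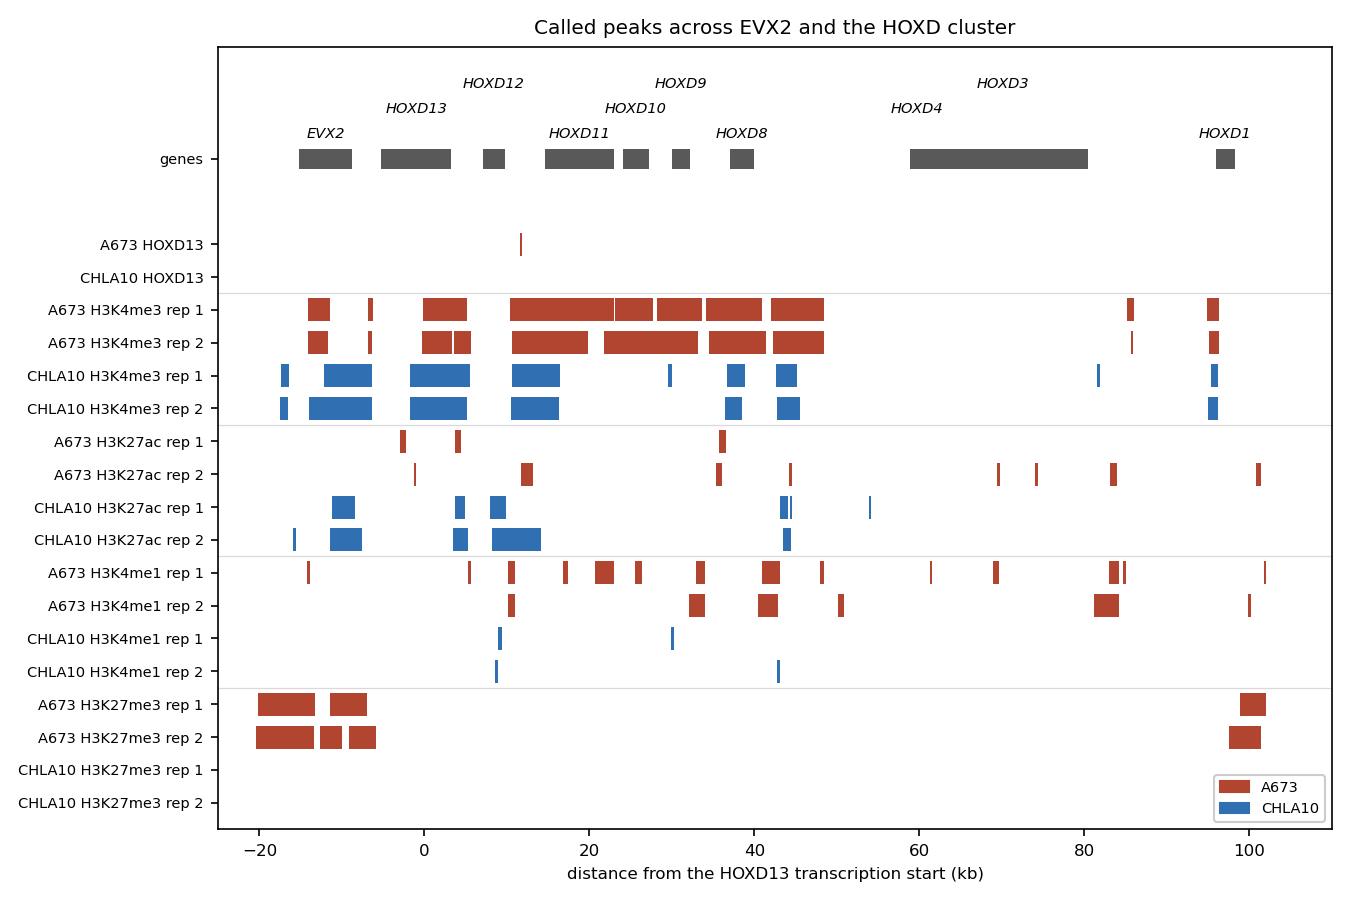
Called peaks of the 18 libraries (rows) along the HOXD locus, with distance from the HOXD13 start in kb on the x axis and genes as grey boxes; red is A673 and blue is CHLA10. H3K4me3 runs almost without a break over HOXD11 to HOXD8 in both A673 libraries, EVX2 carries H3K27me3 in A673 and H3K27ac in CHLA10, and the stretch over HOXD4 and HOXD3 has no H3K4me3 in any library.

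The 4 central genes, HOXD11, HOXD10, HOXD9 and HOXD8, lay under broad H3K4me3 in A673 and under shorter peaks or none in CHLA10. From the start of HOXD11 to the end of HOXD8 (25.4 kb), H3K4me3 covered 95.7 and 87.4% of the bases in the A673 libraries, against 18.2 and 15.1% in the CHLA10 libraries. The means were 91.5 ± 5.86% in A673 and 16.7 ± 2.24% in CHLA10 (SD, n = 2 each), and the lines did not overlap. This stretch holds the 4 members with the highest H3K4me3 cover in A673, so the contrast describes them and is no test. No H3K27me3 was called in this stretch in any library, and H3K27ac covered 3.57 and 2.70% of it in A673 and none in CHLA10.

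HOXD11 (chr2:176107280-176115679), a posterior gene that acts in limb and kidney development, had H3K4me3 over 98.3 and 82.3% of its window in A673, against 27.5 and 26.5% in CHLA10. Its A673 windows were reached by peaks of 12583 and 11449 bp, ranked 4 of 17909 and 5 of 18497 by length in their lists. In every library the peak over the start ended inside the gene, at 176115640 and 176112602 in A673 and 176109134 and 176109039 in CHLA10. These start peaks measured 12583 and 9281 bp in A673 and 5816 and 5790 bp in CHLA10. The 11449 bp peak of A673 replicate 2 began past the start. The start of HOXD11 was therefore under H3K4me3 in all 4 libraries, and the lines differed in how far the mark ran past it.

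HOXD10 (chr2:176116778-176119937), whose product acts in hindlimb and spinal motor neuron patterning, had H3K4me3 over 89.4 and 100% of its window in A673 and no peak in CHLA10. The nearest H3K4me3 to its start in CHLA10 lay 5.40 and 7.74 kb away. HOXD9 (chr2:176122719-176124937), of the same paralogue group as HOXA9, had H3K4me3 over 100 and 98.98% in A673, against 13.9 and 0% in CHLA10. The single CHLA10 value came from a peak of 588 bp with a −log10 q of 3.49 in replicate 1, and replicate 2 had none.

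HOXD8 (chr2:176129705-176132695), a central gene of the cluster, had H3K4me3 over 97.8 and 100% of its window in A673, against 43.96 and 41.5% in CHLA10. The peaks at its start measured 6789 and 6894 bp in A673 and 2194 and 2071 bp in CHLA10. HOXD8 was also the one member with H3K27ac in A673 alone, over 11.5 and 1.62% of the window, from peaks just upstream of the gene. At these 4 genes H3K4me3 cover was higher in both A673 libraries than in both CHLA10 libraries, as it was at 24.4% of all genes. Their windows share long peaks and those of HOXD11 and HOXD10 overlap by 902 bp, so they are not 4 independent observations.

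**Figure D2:**
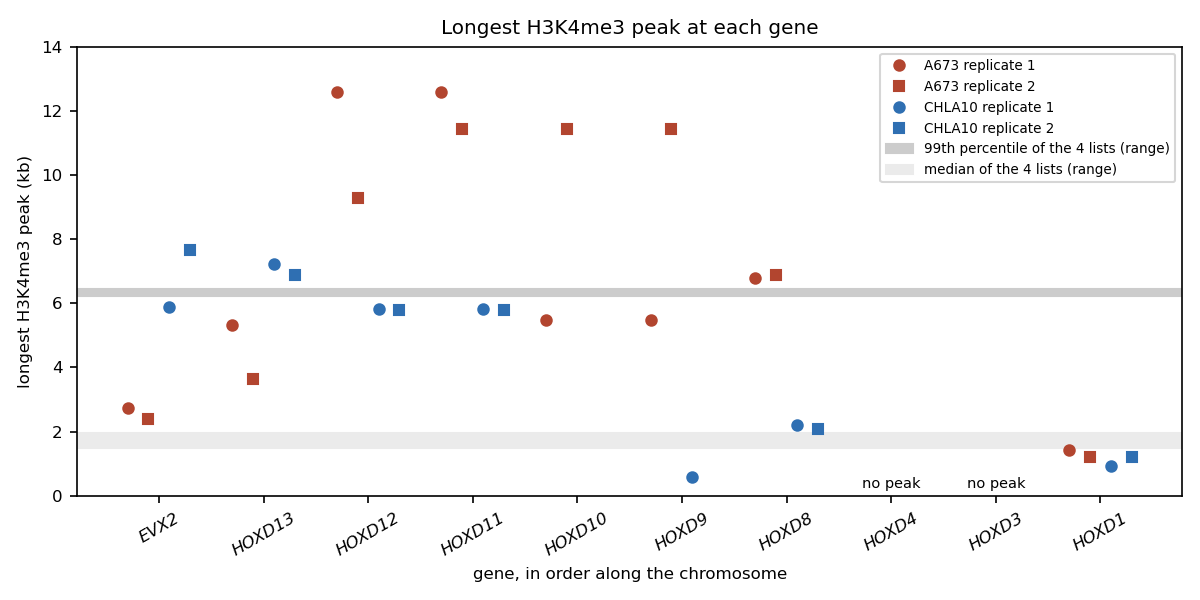
Length in kb of the longest H3K4me3 peak touching each gene's window, by library; red is A673, blue is CHLA10, circles are replicate 1, squares are replicate 2, and grey bands give the range over the 4 lists of the median and 99th percentile peak length. A673 peaks are the longer ones at HOXD12 to HOXD8, and CHLA10 peaks at EVX2 and HOXD13; one peak can appear at several genes.

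At EVX2 the 2 lines carried different marks over the start. EVX2 (chr2:176077472-176083962) encodes a homeodomain factor of the even-skipped family and is transcribed away from HOXD13. H3K27me3 covered 78.8 and 80.6% of its window in A673, against none of it in CHLA10. H3K27ac covered none of it in A673, against 31.9 and 45.5% in CHLA10. H3K4me3 was present in all 4 libraries, over 32.1 and 28.2% in A673 and 52.5 and 73.2% in CHLA10. For each of these 3 marks the A673 libraries lay wholly apart from the CHLA10 libraries, and the differences of means, A673 minus CHLA10, were 79.7, −38.7 and −32.7 percentage points. The H3K27me3 mean was 79.7 ± 1.27% in A673, the H3K27ac mean was 38.7 ± 9.59% in CHLA10, and the H3K4me3 means were 30.1 ± 2.73% in A673 and 62.8 ± 14.7% in CHLA10 (SD, n = 2 each).

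The EVX2 start itself was inside H3K27me3 in both A673 libraries and inside H3K4me3 and H3K27ac in both CHLA10 libraries. The A673 H3K27me3 peaks over the start were weak, with −log10 q values of 2.43 and 2.45. Only 21.5 and 36.6% of the peaks in their lists had lower values, so both fell in the lower 50% by q. In A673 the EVX2 H3K4me3 peak sat within the gene, and the H3K4me3 nearest the start was a short upstream peak 1.94 and 1.87 kb away in the 2 replicates. The peak within the gene overlapped the H3K27me3 peaks of A673 by 802 to 1931 bp, depending on the pair of libraries, and such overlap was 0 bp in CHLA10. H3K4me3 peaks at EVX2 spanned 2724 and 2396 bp in A673, with −log10 q values of 38.7 and 24.6. In CHLA10 they spanned 5877 and 7663 bp, with values of 98.4 and 75.6. These q values are the authors' own per peak, to be read within a list. The promoter printed above lay wholly outside H3K4me3 in A673 and wholly inside it in CHLA10.

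HOXD13 (chr2:176087487-176095944), the most posterior gene of the cluster and the target of the factor antibody, had H3K4me3 over its start in every library. Its RefSeq boundaries reach upstream of that start. The mark covered 41.7 and 41.1% of the HOXD13 window in A673, against 56.7 and 56.7% in CHLA10, and the ranges did not overlap. Its longest peak measured 5315 and 3647 bp in A673 and 7232 and 6897 bp in CHLA10. In A673 replicate 2 the mark was split into 2 neighbouring peaks. H3K27ac was called near HOXD13 in all 4 libraries, over 12.5 and 3.10% of the window in A673 and 5.49 and 7.64% in CHLA10, and these ranges overlapped. The 2 A673 libraries shared no H3K27ac site at HOXD13. Replicate 1 had a peak upstream of the start and another past the gene's end, and replicate 2 had only an upstream peak elsewhere. Both CHLA10 peaks lay past the gene's end. The −log10 q of the best H3K27ac peak was 8.22 (past the end) and 9.69 (upstream) in A673. It was 29.8 and 27.2 in CHLA10, and these values are to be read within a list. No H3K4me1 was called at HOXD13 in either line, and H3K27me3 reached only the upstream edge of the window, over 3.09% in A673 replicate 2.

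HOXD12 (chr2:176099795-176102489), which lies between HOXD13 and HOXD11 and is known in distal limb development, carried H3K27ac in CHLA10 alone. That mark covered none of the HOXD12 window in A673, against 42.5 and 55.5% in CHLA10. The CHLA10 peaks measured 1997 and 5950 bp, the second being the 38th longest of 24293. Neither covered the HOXD12 start, from which they lay 0.862 and 1.09 kb away. Beyond the window, A673 replicate 2 had an H3K27ac peak of 1400 bp, inside the span of the 5950 bp peak. H3K4me3 reached only the far edge of the window, over 9.20 and 3.58% in A673 and 3.64 and 5.11% in CHLA10, from the peak that also covers the HOXD11 start. HOXD12 was the one member with H3K4me1 in all 4 libraries, over 14.1 and 14.2% in A673 and 10.2 and 5.79% in CHLA10. This was not a shared site. The A673 peaks lay past the gene's end, and the CHLA10 peaks lay within the gene, without a common base between the 2 libraries.

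The anterior genes HOXD4 (chr2:176151550-176153226) and HOXD3 (chr2:176152529-176173098) were without H3K4me3 in both lines. Both encode anterior homeodomain factors, active in hindbrain and cervical axial patterning, and their windows overlap by 2698 bp. The stretch without H3K4me3 around them was 36.7 and 37.2 kb long in A673 and 36.3 and 49.5 kb in CHLA10. No H3K27me3 was called at either gene. HOXD4 had 1 H3K4me1 peak of 195 bp, in A673 replicate 1, and no other peak of any mark. HOXD3 had H3K4me1 over 3.87 and 0.798% in A673 and none in CHLA10, and H3K27ac over 1.72% in A673 replicate 2 alone.

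HOXD1 (chr2:176188668-176190907), at the anterior end of the cluster, had H3K4me3 over its start in every library. The mark covered 32.5 and 28.3% of the window in A673 and 21.5 and 28.5% in CHLA10, so the lines overlapped. H3K27me3 was called downstream of the start in A673, over 8.75 and 39.98% of the window, and not in CHLA10. The spread between the A673 replicates (24.4 ± 22.1%, SD, n = 2) was nearly as large as their mean.

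**Figure D3:**
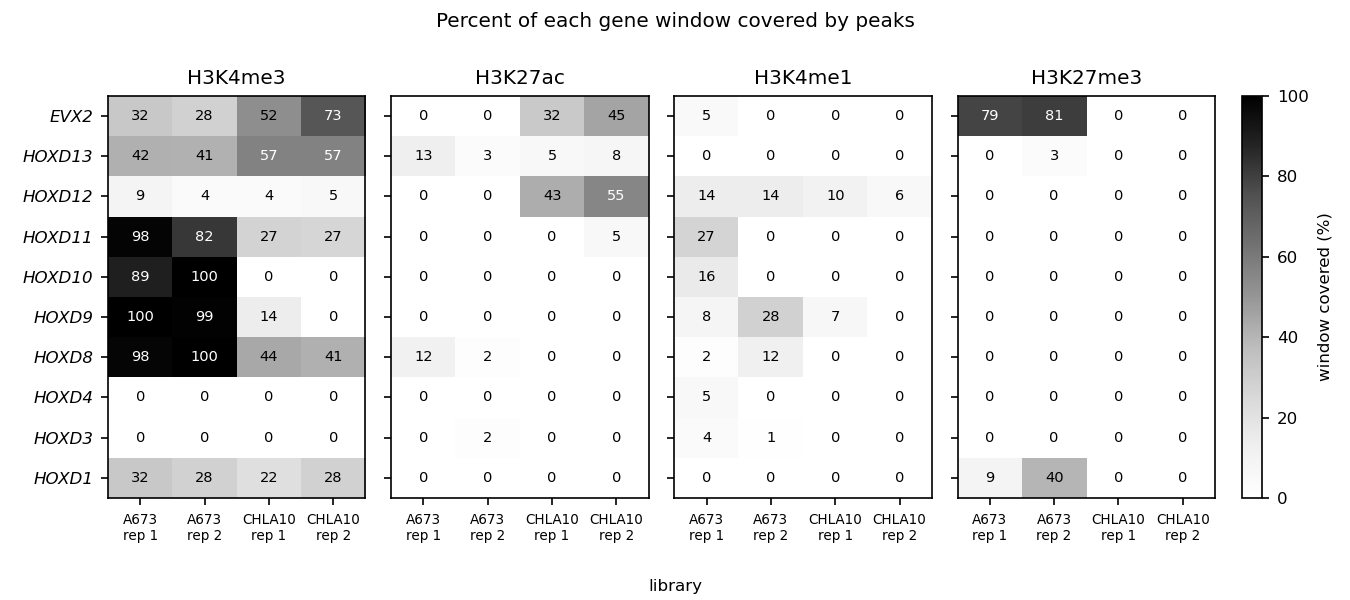
Percent of each gene window (rows) covered by peaks in each library (columns), for the 4 histone marks; darker is higher and the rounded value is printed in each cell. H3K4me3 is darkest at HOXD11 to HOXD8 in A673, and the H3K27me3 panel is filled at EVX2 in A673 and empty in CHLA10.

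Counted over the members, H3K4me3 was present in both A673 libraries at 8 of 10 genes (69.6% of all genes) and in both CHLA10 libraries at 6 of 10 (69.9%). It was called in A673 only at 1 of 10, HOXD10, beside 1.68% of all genes (2 of 10, with HOXD9, without CHLA10 replicate 1), and in CHLA10 only at 0 of 10, beside 2.4%. Cover was higher in both A673 libraries than in both CHLA10 libraries at 4 of 10 (24.4% of all genes), and higher in CHLA10 at 2 of 10, EVX2 and HOXD13 (22.6%). It was present in all 4 libraries at 6 of 10 (66.7%) and in none at 2 of 10, HOXD4 and HOXD3 (24.3%). By presence the members thus stood near the background. Cover of at least 80% of the window in both A673 libraries, a level chosen after the values were seen, was met by 4 of 10 members beside 0.806% of all genes, and in both CHLA10 libraries by 0 of 10 beside 0.681%. The windows of these 4 members measured 4219 to 10400 bp. Reaching 80% depends on window length, and the share over all genes was not matched for it.

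H3K27ac was called in A673 only at 1 of 10, HOXD8 (8.66% of all genes; 2 of 10 without A673 replicate 1, and 0 of 10 with an overlap of at least 200 bp), and in CHLA10 only at 2 of 10, EVX2 and HOXD12 (4.81%). It was present in both A673 libraries at 2 of 10 (38.7%), in both CHLA10 libraries at 3 of 10 (35.1%), in all 4 at 1 of 10, HOXD13 (22.6%), and in none at 4 of 10 (25.2%). Its cover was wholly higher in A673 at 1 of 10 and wholly higher in CHLA10 at 2 of 10, each beside 18.3% of all genes.

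H3K27me3 was called in A673 only at 2 of 10, EVX2 and HOXD1 (5.1%), and in CHLA10 only at 0 of 10 (3.61%). It was present in both A673 libraries at the same 2 genes (17.1%), in both CHLA10 libraries at 0 of 10 (15.5%), in all 4 at 0 of 10 (10.3%) and in none at 7 of 10 (72.2%). Its cover was wholly higher in A673 at 2 of 10 (9.17%) and in CHLA10 at 0 of 10 (8.83%). H3K4me1 was called in A673 only at 2 of 10, HOXD8 and HOXD3 (16.3%; 6 of 10 without A673 replicate 2, and 0 of 10 with an overlap of at least 200 bp), and in CHLA10 only at 0 of 10 (0.411%). It was present in both A673 libraries at 4 of 10 (43.3%), in both CHLA10 libraries and in all 4 at 1 of 10, HOXD12 (17.9 and 15.4%), and in none at 2 of 10, HOXD13 and HOXD1 (28.6%). Its cover was wholly higher in A673 at 4 of 10 (38.4%) and in CHLA10 at 0 of 10 (1.28%), in lists that cover less of the genome in CHLA10. EVX2 was the one member with H3K27me3 in A673 only together with H3K27ac in CHLA10 only, a pair of calls met by 53 genes, or 0.265%. With higher H3K4me3 cover in CHLA10 added, as at EVX2, 28 genes remained (0.14%). Both combinations were taken from the marks seen at EVX2, so their small shares describe EVX2 and are no test of it.

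The mean cover of the 10 windows summarised these differences. For H3K4me3 it was 50.1 and 48.2% in A673 and 21.96 and 23.2% in CHLA10, a difference of 26.6 percentage points. For H3K27ac it was 2.40 and 0.644% in A673 and 7.99 and 11.4% in CHLA10, a difference of −8.17. For all 4 marks the libraries of one line lay wholly above those of the other with these windows. For H3K4me1 mean cover was 8.10 and 5.54% in A673 and 1.71 and 0.579% in CHLA10, a difference of 5.67 that was 2.85 with H3K4me1 lists of equal length. With the gene boundaries alone the H3K4me1 difference was 2.07 and the lines overlapped, at 3.92 ± 4.28% in A673 and 1.85 ± 1.19% in CHLA10 (SD, n = 2 each). For H3K27me3 it was 8.76 and 12.4% in A673 and 0% in both CHLA10 libraries, a difference of 10.6 that was 5.87 with only the 50% of peaks that have the higher q values on the −log10 scale. The two-sided exact permutation test gave p = 0.333 for each mark, also after Benjamini-Hochberg adjustment over the 4 marks, which is the smallest p that 2 libraries against 2 can give, so no threshold could be passed.

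The absence of H3K27me3 over the cluster in CHLA10 was part of a longer stretch. Neither CHLA10 library had an H3K27me3 peak between chr2:173784210-176901368, which is 3.12 Mb, whereas the A673 libraries had 31 and 42 there. The CHLA10 H3K27me3 lists were the longer ones, with 41742 and 44644 peaks against 28060 and 31993 in A673. Other marks were called in this stretch in CHLA10, with 39 and 36 H3K4me3 peaks and 91 and 53 H3K27ac peaks. Gaps at least as long numbered 137 of 41719 and 120 of 44621 in the CHLA10 lists, and 68 of 28037 and 64 of 31970 in the A673 lists. The H3K27me3 lists hold no peak shorter than 2000 bp, so a short domain at a HOXD gene would not be listed.

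The difference in mean H3K4me3 cover between the lines was larger over HOXD and EVX2 than over the other HOX clusters. Mean H3K4me3 cover was 49.2 ± 1.31% in A673 and 22.6 ± 0.840% in CHLA10 over HOXD and EVX2, compared with 16.4 ± 0.0951% and 11.4 ± 2.88% over the 12 genes of HOXA and EVX1 (SD, n = 2 each). It was 44.9 ± 0.264% in A673 and 36.9 ± 0.735% in CHLA10 over the 10 HOXB genes, and 37.5 ± 0.833% and 34.4 ± 1.77% over the 9 HOXC genes. Over all genes it was 8.98 ± 0.246% in A673 and 8.50 ± 0.0966% in CHLA10. The clusters also differed in H3K27me3, which covered 95.8 ± 4.09% of the HOXA and EVX1 windows in A673 and 59.3 ± 4.49% in CHLA10 but was called at no HOXC gene. These means hide single genes. HOXB8 had H3K4me3 over 97.0 and 91.9% of its window in A673 and 38.2 and 40.6% in CHLA10. HOXB13 went the other way, with 58.8 and 68.6% in A673 and 100% in both CHLA10 libraries. No test of the difference between clusters was made.

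**Figure D4:**
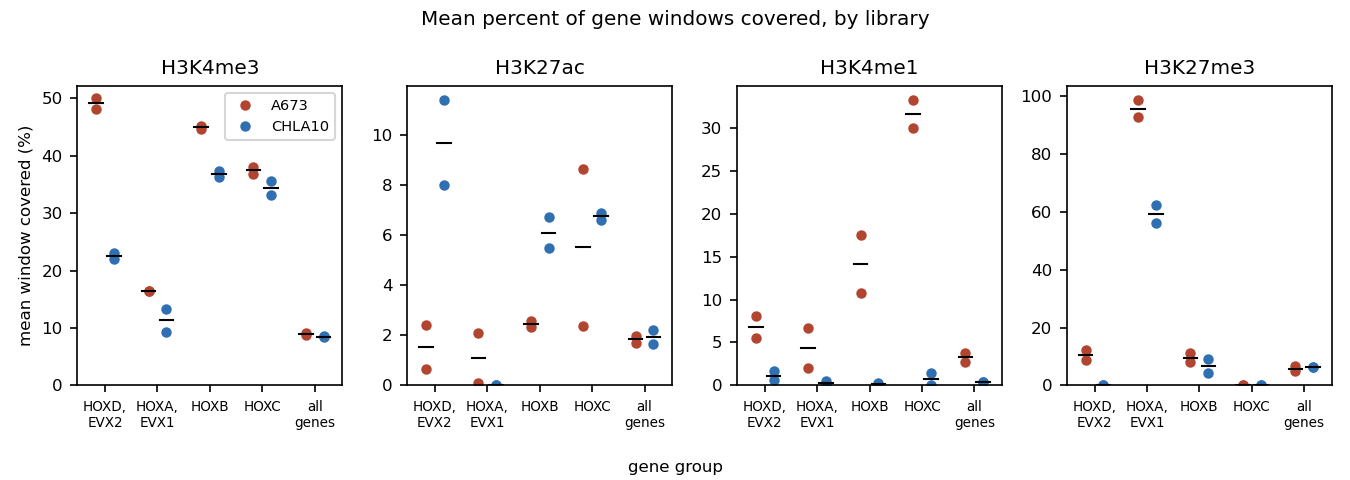
Mean percent of gene windows covered by each mark in each library (points) with the line mean (bar), for HOXD with EVX2, HOXA with EVX1, HOXB, HOXC and all genes; red is A673 and blue is CHLA10, and each panel has its own y axis from 0. The A673 and CHLA10 points for H3K4me3 are farthest apart at HOXD with EVX2, at about 49.2 and 22.6%.

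Between EVX2 and HOXD1, 1 HOXD13 protein peak was called in A673 and none in CHLA10. It was not within 1 kb of a member, so 0 of 10 had such a peak in A673 (12.2% of all genes) and 0 of 10 in CHLA10 (3.81%), counts that lie near those shares. Within 100 kb, 10 of 10 members had one in A673 (38.8%) and 1 of 10, HOXD1, in CHLA10 (11.6%), but each of these counts comes from 1 peak. The A673 peak, at chr2:176104283-176104471, was 189 bp long and lay 1.79 kb beyond HOXD12 and 2.81 kb before the HOXD11 start. It had a −log10 q of 24.3 and a fold enrichment of 15.1 in the authors' list, rank 1605 of 7160 by q. It fell inside H3K4me3 peaks of all 4 libraries and overlapped an H3K27ac peak of replicate 2 of each line, and CHLA10 had no HOXD13 peak there.

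The CHLA10 HOXD13 peak, at chr2:176278787-176279228, was 442 bp long and lay 87.9 kb from HOXD1, on the side away from HOXD3. Its −log10 q was 64.1 and its fold enrichment 26.6, rank 283 of 2099, and A673 had no HOXD13 peak there. It overlapped an H3K4me1 peak of CHLA10 replicate 1 and no peak of another mark in CHLA10. Just outside the 100 kb limit, at 106 kb from HOXD1, both lines had a HOXD13 peak, with a −log10 q of 17.7 in A673 and 4.66 in CHLA10. There was 1 HOXD13 library for each line, so none of these differences has a replicate check, and the lists differ in length (7160 peaks in A673 and 2099 in CHLA10). Among the other clusters, HOXD13 peaks lay within 1 kb of HOXC4, HOXC5, HOXC6 and HOXB13 in A673 and of no HOX gene in CHLA10. Within 100 kb they lay near 9 of 9 HOXC genes in each line, beside 38.8% of all genes in A673 and 11.6% in CHLA10. At that distance they lay near 1 of 10 HOXB genes in A673 and 0 of 10 in CHLA10. For HOXA with EVX1 the count was 0 of 12 in each line, and neighbouring genes can share a peak.

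Of the noncoding genes in the locus, HOXD-AS2, an antisense transcript next to HOXD8, had H3K4me3 over 79.6 and 81.1% of its window in A673 and 61.3 and 63.1% in CHLA10. Its H3K4me1 cover was 47.4 and 41.9% in A673 and 0 and 4.58% in CHLA10, and its H3K27ac cover was 0 and 5.31% in A673 and 30.8 and 23.3% in CHLA10. MIR10B, the microRNA gene beside HOXD4, carried none of the 4 marks. HAGLR, between HOXD3 and HOXD1, had H3K4me3 over 12.6 and 8.28% in A673 and 7.41 and 6.80% in CHLA10. HAGLROS, which lies within the HAGLR boundaries, had H3K4me3 over 28.9 and 9.56% in A673 and none in CHLA10. The flanking genes LNPK and MTX2 had no H3K27me3 in either line.

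Over the 16 histone libraries, the genes whose cover was most like that of EVX2 included UBE2QL1 (Pearson r = 0.945), DNAI7 (0.942), TEX9 (0.900) and CDCA7L (0.900). UBE2QL1 had H3K27me3 over 7.13% of its window in A673 and 0% in CHLA10, with H3K27ac over 0% in A673 and 1.11% in CHLA10. The genes most like HOXD13 included HTD2 and RPP14 (0.994 each, with identical boundaries), CEP295 (0.994) and ZNF615 (0.994), which carry H3K4me3 and little else in both lines. These correlations are descriptions across libraries that share antibodies and lines. H3K4me3 was present in all 4 libraries at 9 of 9 HOX cofactor genes and 13 of 13 Polycomb subunit genes, beside 66.7% of all genes, and H3K27me3 was called in A673 only at 2 of 9 cofactors, MEIS2 and PBX3 (5.1% of all genes), and in CHLA10 only at 1 of 9, MEIS3 (3.61%).

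The promoters differed widely in CG content. RefSeq held 9 of the 10 promoters, HOXD9 being the one without an entry. HOXD4 had 4 CG dinucleotides in 300 bases, EVX2 15, HOXD12 19, HOXD10 23, HOXD13 24, HOXD3 25, HOXD11 27, HOXD8 34 and HOXD1 36, where the median of 15811 promoters was 22. The start lay under H3K4me3 in 5 of 9 promoters in every library. These were HOXD13, HOXD11, HOXD8 and HOXD1 in both lines, HOXD10 in A673 and EVX2 in CHLA10. The share of all promoters with the start under H3K4me3 is not given here, so this count has no background beside it. HOXD3 held more CG dinucleotides than EVX2, HOXD10 or HOXD13 and was without the mark in both lines. The 4 motifs below were searched on both strands. TCGTAAA (in 0.531% of all promoters) and GGAAGGAA (3.55%) matched no member, CAATAAA (2.83%) matched once in EVX2, and TGATTNAT (2.07%) once in HOXD11.

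**Figure D5:**
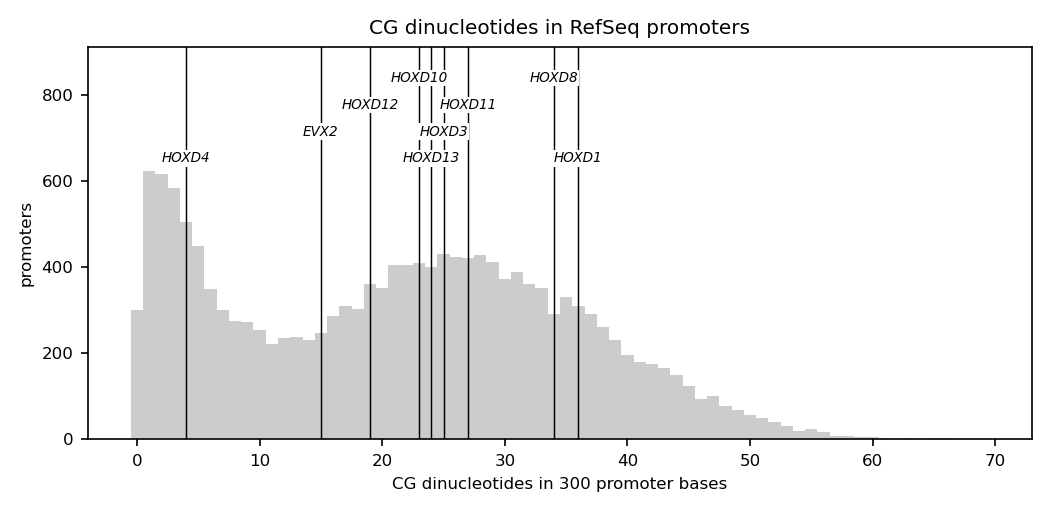
Histogram of CG dinucleotide counts (x axis) in 15811 RefSeq promoters of 300 bases (y axis, number of promoters), with a labelled line for each of the 9 members that have an entry. HOXD4 sits at the low end with 4, and HOXD8 and HOXD1 at the high end with 34 and 36.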

How the data were processed

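The peak lists of 18 libraries were used as the authors deposited them, 1 list per library. The lists have no header line, and their columns follow the standard narrow or broad peak layout. The deposited fold enrichment (a ratio to the peak caller's background), −log10 p and −log10 q values, the score (10 times the −log10 q) and the summit were all made by the authors. The submitters' processing notes name hg38, Bowtie2, MACS2, SEACR 1.2 and bedtools without giving their roles. Numbers are missing from the series of peak names, and the criterion for leaving peaks out is not given in the sources used here. Reads were paired, 25 bp each, per the labels' protocols.

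Genes were placed with RefSeq GRCh38.p14. A peak was counted at a gene when it overlapped the window by at least 1 bp, and a mark counted as in one line only when both of its libraries and neither library of the other line had a peak. Lines were compared over libraries by a two-sided exact permutation test, and counts were set beside all 19970 genes. All 10 members are named, and other lists are given by counts. For likeness to EVX2 and HOXD13, genes were taken from the 5 with the highest Pearson r. Some genes of these lists are not reported here. The members and lists were chosen with earlier results of these data known. Alternatives changed the window, the overlap, the peak threshold, the list length, the HOXD13 distance and the libraries used, and a replicate block was added after the data were seen. Coverage and presence were tested on simulated data. Python 3.11.15, numpy 2.4.6, pandas 2.3.3, scipy 1.17.1 and matplotlib 3.10.9 were used.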

Additional observations from a re-analysis of the deposited data

How the results depend on the processing

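The differences in mean cover of the 10 windows, A673 minus CHLA10, kept their sign under the alternatives run. With 1 library left out they spanned 25.7 to 27.5 percentage points for H3K4me3, −9.87 to −6.47 for H3K27ac, 4.39 to 6.95 for H3K4me1 and 8.76 to 12.4 for H3K27me3. The counts of members are small and moved more. With 1 library left out, members with H3K4me3 in A673 only numbered 1 to 2 (2 without CHLA10 replicate 1, where the lone peak at HOXD9 drops out), with H3K27ac in A673 only 1 to 2 (2 without A673 replicate 1) and in CHLA10 only 2 to 3, with H3K27me3 in A673 only 2 to 3, and with H3K4me1 in A673 only 2 to 6 (6 without A673 replicate 2). The counts in CHLA10 only stayed at 0 for H3K4me3, H3K4me1 and H3K27me3. With the gene boundaries alone, H3K27me3 in A673 only fell to 1 member and H3K4me1 to 0, and H3K4me1 in CHLA10 only came to 1. With 5 kb on each side, H3K4me3 in A673 only came to 0 and H3K27ac in CHLA10 only to 1. The member lost there was HOXD12, whose wider window reached H3K27ac peaks of A673. With an overlap of at least 200 bp, H3K27ac and H3K4me1 in A673 only both came to 0. With the weaker peaks removed, keeping 50% of a list by its q values, H3K4me3 in A673 only came to 2 and in CHLA10 only to 1, and with lists of equal length H3K4me3 in A673 only came to 2 and H3K4me1 in A673 only to 1. HOXD13 peaks near a member numbered 2 within 200 kb in each line and 0 within 50 kb in CHLA10. The causes were not tested beyond what each setting does by construction. The H3K4me1 difference in mean cover fell to 2.07 with the gene boundaries alone, where the lines overlapped (exact permutation p = 1.0), and to 2.85 with lists of equal length, and the H3K27me3 difference came to 5.87 with the weaker peaks removed. A replicate block, added after the data were seen, left the differences at 26.6, −8.17, 5.67 and 10.6 percentage points for H3K4me3, H3K27ac, H3K4me1 and H3K27me3, with SE of 1.52, 2.58, 0.715 and 1.81 (n = 2 pairs). Its exact paired permutation p was 0.5 for each mark, the smallest that 2 pairs can give, so it could change no call. Deviations of same-numbered libraries from their line means correlated at −0.033 to 0.018 across 19970 genes. With 2 libraries per line and many windows without peaks, this cannot tell whether such libraries shared a culture or run. Depth is unknown, so an absent peak is a bound set by the authors' threshold and not a measured zero.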
